A study of Homo sapiens with 4 samples.

Results

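The S100 calcium-binding proteins are described here by 10 genes of the family, S100A2, S100A3, S100A4, S100A6, S100A8, S100A9, S100A10, S100A11, S100A14 and S100A16. They were chosen by name, as the rows of the authors' table that carry these symbols, and all 10 were found among its 57815 genes. RNA-Seq of untreated MDA-MB-231, a triple-negative breast cancer cell line, was compared with that of LM2-4175, a cell line isolated from MDA-MB-231 that spreads preferentially to the lung. Both were grown in DMEM with serum, and each group is 1 cell line in 2 libraries, so 4 libraries in all. The authors combined the libraries of a cell line in 1 FPKM (a count of sequenced fragments scaled by transcript length and library size) with a lower and an upper bound. No value per library could be examined, no SD was computed, and none of the differences has a replicate check here. The question of the comparison is which genes separate the lung-metastatic cells from the cells they came from.

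S100 proteins are small proteins with a pair of EF-hand motifs, the helix-loop-helix elements that hold calcium. Most form dimers that open on binding calcium and then dock onto a target, such as an annexin, a myosin or p53. Some are also secreted, and outside the cell they can act on receptors such as RAGE and TLR4. Most of the genes sit together on human chromosome 1, next to genes of the skin's outer layer, and several are known from tumours for roles in motility, invasion and inflammation.

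S100A4 and S100A10 fell in LM2-4175, and the other members were not called. S100A4 went from 580.4 FPKM in MDA-MB-231 to 87.0 FPKM in LM2-4175, which is 6.67-fold lower. S100A10 went from 914 to 419 FPKM, which is 2.18-fold lower. S100A6 stayed the highest member in both cell lines, at 2658 and 2308 FPKM. S100A8 and S100A9, the pair that makes up calprotectin, were at or near 0 in both.

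A gene was called higher or lower where its status was OK in both cell lines, the mean of both FPKM values reached 0.5, FPKM + 1 changed by at least 1.5-fold, and the authors' bounds did not overlap. The call compares pooled libraries and is not a test between replicates. The authors' own Cuffdiff test, with q-values, kept more genes than this rule and was not used. A gene not called here is thus not called by this rule alone. Of the 10 members, 8 had values that could be tested in this way, since S100A8 and S100A9 were under the minimum. Of these 8, 2 were called lower, 0 higher and 6 were not called. Over all 13911 genes tested, 9.27% were called, with 4.61% lower and 4.67% higher. The median log2 fold change was -0.22 over the 8 members and -0.04 over all genes tested. The 1034 genes with at least 100 FPKM in MDA-MB-231, a level that 5 of the members passed, had a median of -0.20. They were picked by their level in that line alone, which favours genes that fell. In bulk RNA, fewer cells that use a gene and less of its RNA per cell cannot be told apart.

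**Figure D1:**
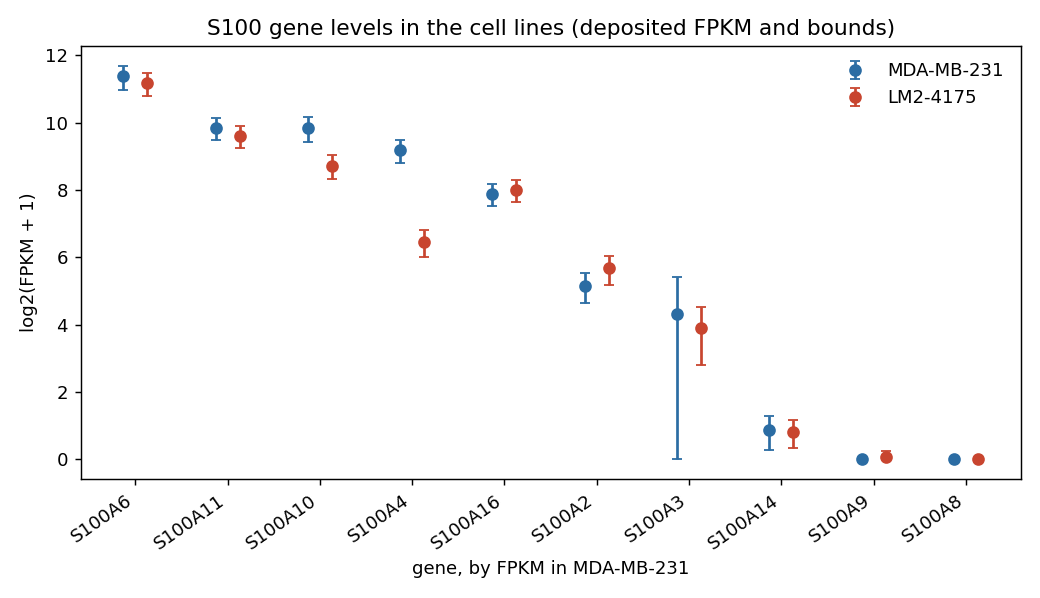
The plot shows log2(FPKM + 1) of the 10 S100 genes, ordered by their level in MDA-MB-231 (blue) with LM2-4175 beside it (red). Points are the authors' pooled values and bars their bounds. The bars are apart for S100A10 and S100A4 and overlap for the other 6 genes tested, while S100A9 and S100A8 lie at the bottom of the scale.

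S100A4, also called metastasin, binds non-muscle myosin IIA, takes part in cell motility and is widely used as a mesenchymal marker. It is ENSG00000196154, at chr1:153516089-153522612 of GRCh37 on the minus strand. MDA-MB-231 had 580.4 FPKM (bounds 445 to 715) and LM2-4175 had 87.0 FPKM (bounds 62.9 to 111). The bounds are apart, and the fold between them is 4.01 at the nearest and 11.4 at the farthest. What the bounds cover is not given, so they do not limit the fold between replicates. The log2 fold change was -2.72 on the scale of FPKM + 1. Among the 13911 genes tested, 41 had a lower log2 fold change than S100A4. Among the 1034 genes with at least 100 FPKM in MDA-MB-231, S100A4 stood at position 10 from the bottom. S100A4 passed that level in MDA-MB-231 only. Picking genes by the parental line alone favours falls, so this position is no support for the fall. Within MDA-MB-231 its FPKM was 21.8% of that of S100A6, and within LM2-4175 it was 3.77%. This share, a ratio of values in the same column, does not depend on how the cell lines were scaled against each other.

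S100A10 encodes p11, which binds annexin A2 in a heterotetramer at the cell membrane and, unusually for the family, has EF hands that no longer bind calcium. The complex is known to gather plasminogen at the cell surface. The gene is ENSG00000197747, on the minus strand of chromosome 1 from 151955391 to 151966335 of GRCh37. Its FPKM was 914 (bounds 688 to 1139) in MDA-MB-231 and 419 (bounds 317 to 522) in LM2-4175. Its log2 fold change was -1.12, and the nearest bounds still leave a fold of 1.32. Among all genes tested, 427 had a lower log2 fold change than S100A10. It stood at position 39 from the bottom of the 1034 genes with at least 100 FPKM in MDA-MB-231. That set favours genes that fell, as said for S100A4. S100A10 and its neighbour S100A11 were level in MDA-MB-231, where the FPKM of S100A10 was 99.4% of that of S100A11. In LM2-4175 it was 53.9%, and there the bounds of the genes did not overlap.

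Because S100A4 and S100A10 were the members that fell, the sequence before their start sites is shown, with that of S100A6, the highest member, for comparison. Each is the 250 bases before the RefSeq start site (windows of build GRCh38.p14), read 5′ to 3′ on the gene's strand, which is the minus strand for the 3 genes. Capitals mark a match to any of 4 motifs searched on both strands, which were TTGCNNAA for C/EBP factors, TGANTCA for AP-1, the NF-kB motif and TATAAA for the TATA box. Exact matches placed them in GRCh37 at chr1:153518283-153518532 for S100A4, chr1:151966336-151966585 for S100A10 and chr1:153508468-153508717 for S100A6. The windows of S100A4 and S100A6 lie inside the GENCODE span of these genes. Their RefSeq start sites thus differ from the outermost annotated start sites, from which distances between genes are measured below.
S100A4: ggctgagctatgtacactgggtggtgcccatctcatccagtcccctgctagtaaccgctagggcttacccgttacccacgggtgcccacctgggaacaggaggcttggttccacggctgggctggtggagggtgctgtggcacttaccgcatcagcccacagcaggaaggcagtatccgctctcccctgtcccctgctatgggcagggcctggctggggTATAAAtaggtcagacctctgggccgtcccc
S100A10: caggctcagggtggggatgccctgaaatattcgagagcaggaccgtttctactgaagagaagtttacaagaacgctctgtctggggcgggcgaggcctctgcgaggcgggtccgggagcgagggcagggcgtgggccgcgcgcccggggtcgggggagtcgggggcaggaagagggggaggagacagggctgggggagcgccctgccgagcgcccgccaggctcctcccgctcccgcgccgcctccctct
S100A6: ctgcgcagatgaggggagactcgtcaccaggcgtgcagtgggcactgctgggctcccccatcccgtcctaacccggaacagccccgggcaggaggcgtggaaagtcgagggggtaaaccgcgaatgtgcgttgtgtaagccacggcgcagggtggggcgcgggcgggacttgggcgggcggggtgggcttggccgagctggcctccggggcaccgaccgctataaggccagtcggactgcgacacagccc

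The upstream sequence of S100A4 holds a TATA box, from 31 to 26 bases before the start site, and no other match. Those of S100A10 and S100A6 hold none of the 4 motifs. S100A10 and S100A6 share a sequence rich in CpG, with 24 CpG each, against 7 in S100A4 and a median of 11 over 35116 windows of RefSeq promoters. Of these windows, 10.7% hold TATAAA, 9.05% the C/EBP letters, 6.57% the AP-1 letters and 0.527% the NF-kB motif. Over the 13905 windows of tested genes, the shares in the same order were 5.77%, 6.44%, 4.54% and 0.539%. The 10 members have 14 windows, of which 4 hold TATAAA, those of S100A4, S100A8 and S100A9 among them. The AP-1 letters were found for S100A2 and S100A3, the C/EBP letters for S100A11 and the NF-kB motif for no member. S100A4 and S100A10, the members that fell, have no motif of the 4 in common. Each motif is found in at most 10.7% of all windows, so the lack of a shared motif says little. Whether any of the motifs had a part in the falls was not tested. A match is only a description of the letters, and no binding was measured here.

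The 3 most abundant members that were not called are S100A6, S100A11 and S100A16. S100A6, or calcyclin, is abundant in dividing cells and binds CACYBP. Its FPKM was 2658 (bounds 2013 to 3304) in MDA-MB-231 and 2308 (bounds 1759 to 2857) in LM2-4175. The log2 fold change was -0.20. It ranked at 19 among all genes of the table in both cell lines. S100A11, a partner of annexin A1, had 919 FPKM (bounds 710.0 to 1127) and 778 FPKM (bounds 601 to 956), a log2 fold change of -0.24. S100A16, a widely expressed member, had 236 FPKM (bounds 182 to 290.2) in MDA-MB-231 and 257 FPKM (bounds 198 to 315) in LM2-4175. Its log2 fold change was 0.12. The bounds of these 3 genes overlap widely, and they extend above the FPKM by 22.7% to 24.3% of its value. Relative to S100A6, the FPKM of S100A11 was 34.6% in the parental and 33.7% in the derived line.

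**Figure D2:**
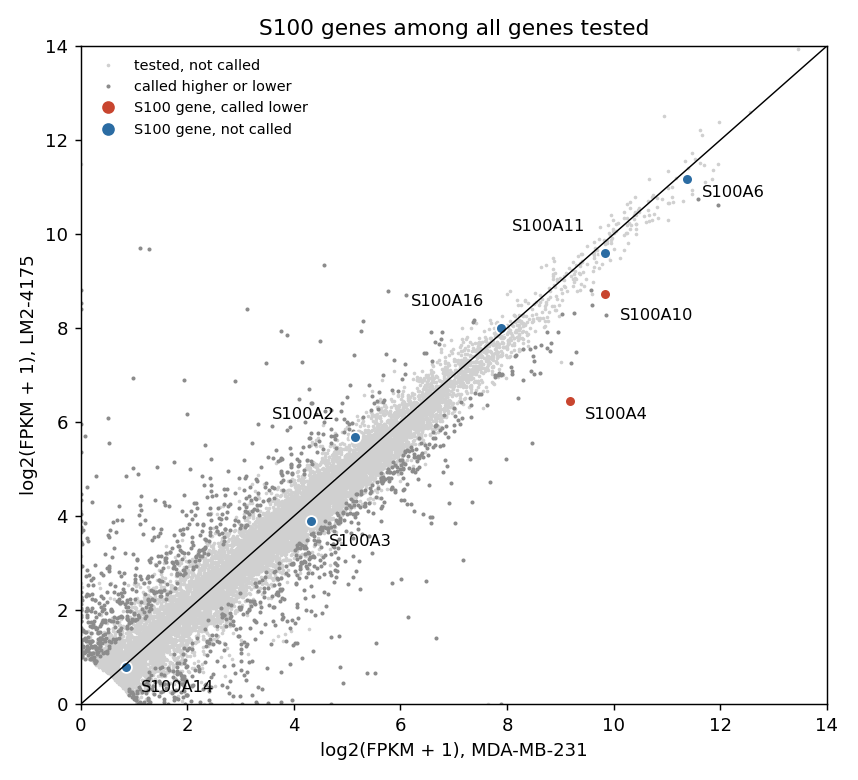
Each point is 1 of the 13911 genes tested, with log2(FPKM + 1) in MDA-MB-231 on the horizontal axis and in LM2-4175 on the vertical axis, and the line marks equal values. S100A4 and S100A10 (red) lie below the line, with log2 fold changes of -2.72 and -1.12, and the other 6 S100 genes tested (blue) lie nearer to it.

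S100A2 and S100A3 were expressed at a lower level. S100A2, a member of epithelial cells that binds p53, had 34.4 FPKM (bounds 23.7 to 45.2) in the parental line and 50.2 FPKM (bounds 35.2 to 65.1) in LM2-4175. Its log2 fold change of 0.53 was the highest of the members tested. With the authors' scaling it was under 1.5-fold and the bounds overlap, so S100A2 was not called. S100A3, best known from the hair cuticle, had 18.9 FPKM (bounds 0 to 41.6) and 13.99 FPKM (bounds 5.89 to 22.1). The bounds of S100A3 in MDA-MB-231 are the widest of the abundant members relative to the FPKM, since the upper bound lies 120.1% above it. The gene (153519805 to 153521734, minus strand) lies in an intron of the longest S100A4 transcript, and the authors' table gives the same locus for both genes, but their annotated exons share 0 bases. S100A14, a gene of epithelia, had 0.814 FPKM (bounds 0.213 to 1.42) and 0.744 FPKM (bounds 0.255 to 1.23).

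S100A8 and S100A9 are the calprotectin genes of neutrophils, monocytes and inflamed epithelium. S100A8 (153362508 to 153363549, minus strand) was listed at 0 in both cell lines. S100A9 (153330330 to 153333499, plus strand) was also listed at 0 in MDA-MB-231, while LM2-4175 had 0.0532 FPKM (bounds 0 to 0.176). No fold is given, as an exact 0 in such a table can be a failed estimate. Myeloid cells, which carry these genes, were checked with 14 genes, of which 11 were under 1 FPKM in both cell lines. The defining genes PTPRC, ITGAM and SPI1 were at most 0.0767, 0.0192 and 0.0256 FPKM, and CSF3R, MPO, FCGR3B and AIF1 were listed at 0. The summed FPKM of the 14 genes was 9.28 in the parental and 3.34 in the derived line. FPR1, a receptor for formyl peptides, was called lower with 4.34 and 0.215 FPKM, CSF1R had 2.92 and 0.790 FPKM and CD14 had 1.17 and 1.75 FPKM. Of 12 squamous epithelial genes, 10 were under 1 FPKM in both cell lines, among them KRT5, KRT14 and TP63, and KRT1 and KRT6A were listed at 0. SFN was called lower, from 105 to 56.0 FPKM, and KRT10 had 5.10 and 5.60 FPKM. The summed FPKM of this list was 111 and 62.3.

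The 12 markers examined, for receptors and for mesenchymal and epithelial cells, did not all point the same way. The samples are labelled by cell line only, and protein is not measured in these RNA data. ESR1 and PGR were at most 0.0331 and 0.0124 FPKM, while ERBB2 had 34.95 and 22.8 FPKM. The mesenchymal gene VIM had 1355 and 1768 FPKM and CDH1, the epithelial cadherin, 0.851 and 0.366 FPKM. CDH2, the mesenchymal cadherin, was also low, at 0.221 and 0.0839 FPKM, while the epithelial keratins KRT8 (626 and 180.2 FPKM) and KRT18 (448 and 181 FPKM) were abundant. ZEB1 had 26.1 and 40.5 FPKM and was not called, and FN1 was called lower, from 314 to 117 FPKM. The epithelial genes KRT8, KRT18 and EPCAM were called lower in LM2-4175 too, with log2 fold changes of -1.79, -1.30 and -1.16, and ESRP1 had 0.144 and 0.439 FPKM. S100A4 thus fell together with the mesenchymal gene FN1 and with epithelial keratins, and the part of either in its change was not tested.

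The order of the members by FPKM, a scale that allows levels of different genes to be compared, changed for S100A4 and S100A16 only. In MDA-MB-231 it was S100A6, S100A11, S100A10, S100A4, S100A16, S100A2, S100A3, S100A14 and S100A9, with S100A8 level with the last. In LM2-4175, S100A4 stood below S100A16. S100A4 was 2.46 times S100A16 in MDA-MB-231 and S100A16 was 2.95 times S100A4 in LM2-4175, with bounds apart in both. In MDA-MB-231 the bounds of S100A11 and S100A10, of S100A10 and S100A4, of S100A2 and S100A3 and of S100A3 and S100A14 overlap, so these neighbours are not separated. Among members with an FPKM above 0.5 in LM2-4175, the neighbours S100A4 and S100A2 were the pair that overlaps.

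The 10 members summed to 5361 FPKM in MDA-MB-231 and 3915 FPKM in LM2-4175, which is 0.847% and 0.654% of the FPKM of all genes. S100A6 made up 49.6% of this sum in the parental and 59.0% in the derived line. S100A10 went from 17.0% to 10.7% of it and S100A4 from 10.8% to 2.22%. The sum differed by -1447 FPKM, of which S100A4 and S100A10 gave -988 FPKM (68.3%). In FPKM the losses of these 2 genes were nearly equal, at -493 for S100A4 and -494 for S100A10, although their folds were not. By FPKM lost they ranked 15 and 14 among all genes tested. The FPKM of all genes also summed to less in LM2-4175, at 598147 against 632944 in MDA-MB-231. Differences in FPKM thus depend in part on the scaling of the cell lines.

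Of the other 11 genes of the family, 3 passed the minimum and 0 were called. As 9.27% of all genes tested were called, 0 of 3 says little. S100A13, a partner of secreted growth factors, had 120.4 FPKM (bounds 70.1 to 171) and 137 FPKM (bounds 83.7 to 190.2), a log2 fold change of 0.18. Exons of other genes, S100A1 among them, overlap 33.5% of its exon bases, and strand use in counting is not stated in the sources used here. S100A5, which lies between S100A6 and S100A4, had 3.82 FPKM (bounds 1.94 to 5.69) in MDA-MB-231 and 2.03 FPKM (bounds 0.855 to 3.21) in LM2-4175. Its log2 fold change was -0.67, past 1.5-fold but with overlapping bounds. S100P, on chromosome 4, had 1.10 FPKM (bounds 0 to 2.73) and 0.179 FPKM (bounds 0 to 0.466). S100A7, S100A7A, S100A7L2 and S100A12 were listed at 0 in both cell lines, and S100A1, S100B, S100G and S100Z were under 0.5 FPKM in both.

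All 10 members lie on chromosome 1 between 151955391 and 153589462 of GRCh37, a span of 1634 kb, and all but S100A9 on the minus strand. S100A10 and S100A11 are a pair 38.6 kb apart, and the other 8 lie within 259 kb from S100A9 to S100A14. S100A4 and S100A6 are 7.37 kb apart. Within 100 kb of S100A4, 10 other genes were tested, 5 of them members. Of these 10, 5 were higher, 5 were lower and 0 were called, against 9.27% of all genes tested. Their median log2 fold change was 0.01. Within 1000 kb, 29 other genes were tested with a median of 0.12, and the 2 called, RAB13 and IL6R, were higher. Within 1000 kb of S100A10, 31 other genes were tested with a median of -0.12, and TUFT1 was the 1 gene called, from 18.4 to 8.47 FPKM. AL450992.2 had a log2 fold change of -1.33 from 2.37 to 0.344 FPKM, but its bounds overlap and it was not called. S100A4 and S100A10 were picked as the members called, so smaller changes of the members beside them are no support for their falls.

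**Figure D3:**
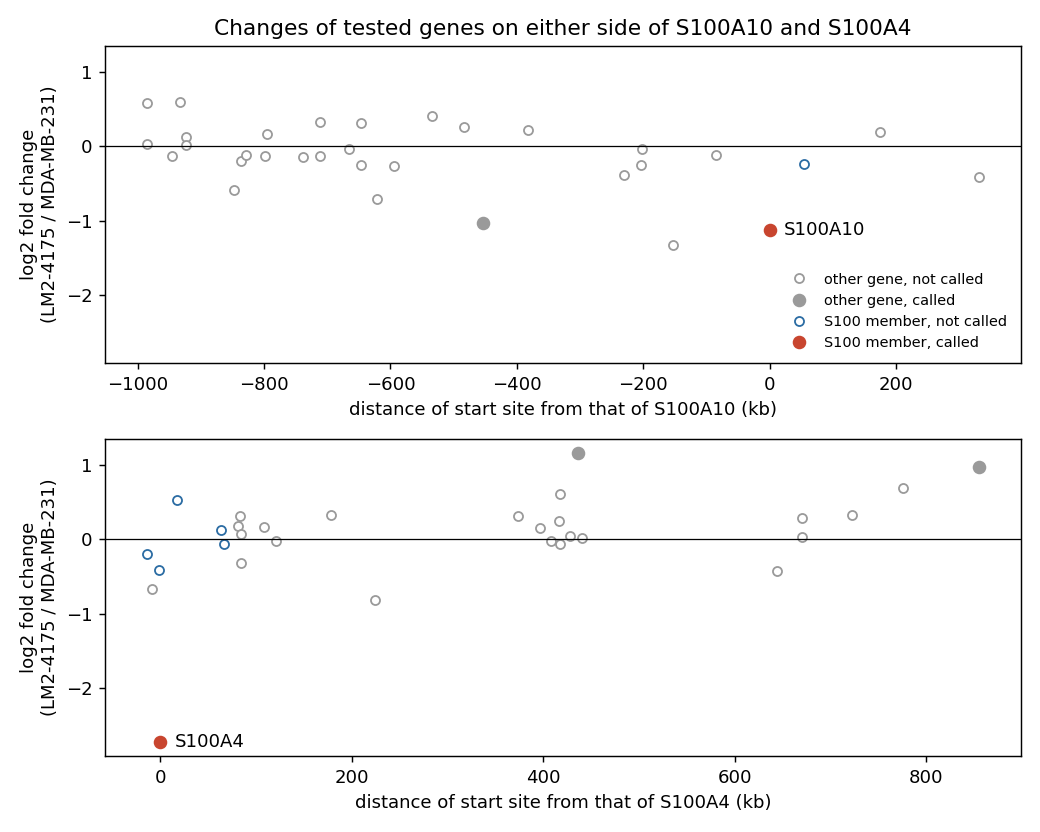
Log2 fold change of the genes tested within 1000 kb of S100A10 (upper panel) and S100A4 (lower panel), against the distance in kb between outermost annotated start sites. Filled points are genes called. S100A4, at -2.72, lies below its 29 neighbours, which had a median of 0.12, and S100A10 lies below S100A11, at -0.24, but above AL450992.2, at -1.33, which was not called.

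Between S100A11 and S100A9 the chromosome carries genes of the cornified envelope and S100-fused genes, whose long proteins begin with an S100 domain. Of 17 cornified envelope genes, among them LOR, IVL and SPRR3, 16 were listed at 0 in both cell lines and LCE3D was under 0.5 FPKM. Of 7 S100-fused genes, FLG, which encodes filaggrin, was the 1 gene tested, with 2.74 FPKM (bounds 1.98 to 3.49) and 1.79 FPKM (bounds 1.23 to 2.36), and it was not called. HRNR had 0.194 and 0.359 FPKM, and TCHHL1 was listed at 0. Of the 7 S100-fused genes, 6 were under 1 FPKM in both cell lines.

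The members were also compared in sequence, since reads of close copies can be assigned to the wrong gene. The coding sequences in GENCODE 44 run from 273 bases in S100A6 to 345 bases in S100A9, stop codon included. Over the 45 pairs of members, the identity of aligned coding sequences had a median of 52.7% and a range of 46.9% to 69.6%. The closest pair was S100A2 and S100A4, followed by S100A4 and S100A6 with 64.0%. The longest run of bases that annotated transcripts of a pair of members share was 17, again in S100A2 and S100A4. S100A2 had a log2 fold change of 0.53 and S100A6 of -0.20, and neither was called. Other genes of the family were not compared in sequence, and whether reads were assigned to the wrong gene was not tested. S100A11 shares a run of 44 bases with its pseudogene S100A11P2 and 41 with S100A11P1, and both pseudogenes were listed at 0. Exons of another gene overlap 3.81% of the exon bases of S100A6 and 0% of those of the other 9 members.

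Genes for receptors of secreted S100 proteins were expressed unevenly. Of 9 genes on this list, which also holds a co-receptor and a signalling adaptor, 7 were tested. Of these, 0 were called, against 9.27% of all genes tested, so with so few genes the count says little. Their median log2 fold change was 0.27. AGER, which encodes RAGE, the receptor best known for S100 ligands, was listed at 0 in MDA-MB-231, while LM2-4175 had 0.00824 FPKM. TLR4, a receptor for S100A8 and S100A9, had 8.87 FPKM (bounds 6.66 to 11.1) in MDA-MB-231 and 14.6 FPKM (bounds 11.1 to 18.1) in LM2-4175. Its log2 fold change was 0.66. The upper bound of 11.08 and the lower bound of 11.055 barely overlap, and TLR4 was called higher under each of the 3 other scalings. LY96, the co-receptor of TLR4, had 3.88 and 6.81 FPKM, with overlapping bounds. BSG, or basigin, was the most abundant of the list with 521 and 524 FPKM. ALCAM had 147 FPKM (bounds 109 to 184) and 90.0 FPKM (bounds 67.0 to 113), and CD68 had 107 FPKM (bounds 0 to 238) and 179 FPKM (bounds 10.6 to 347).

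**Figure D4:**
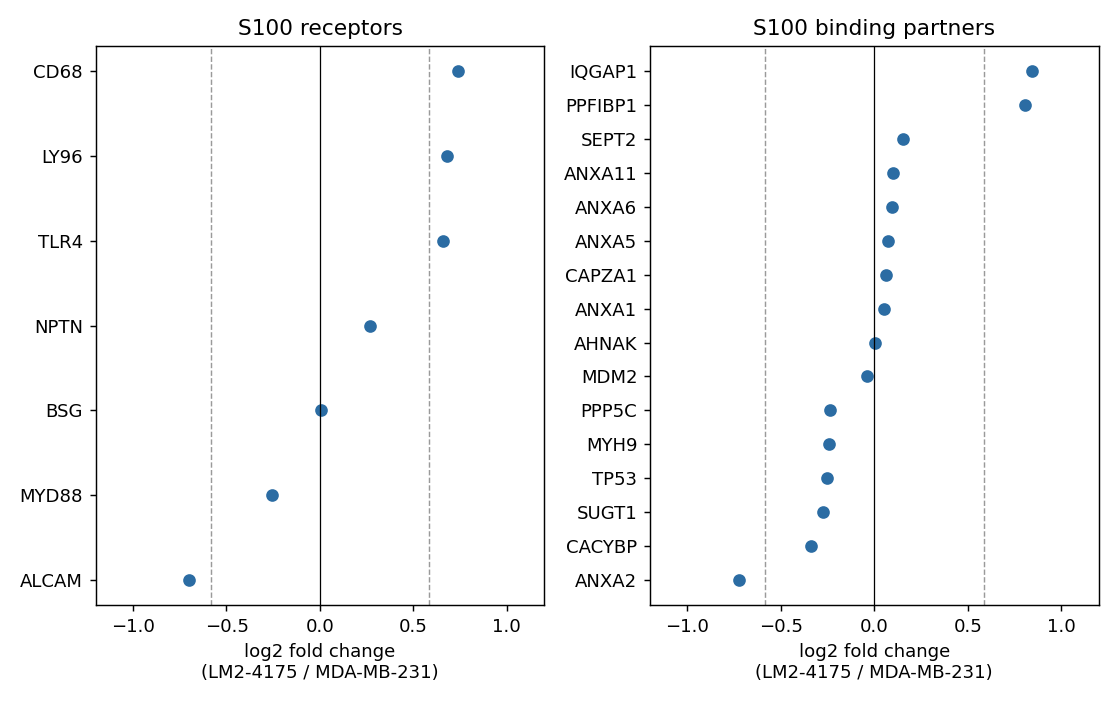
Log2 fold change in LM2-4175 over MDA-MB-231 of 7 genes of the receptor list (left) and 16 binding partner genes (right) that were tested. Genes are in order of change, with dashed lines at 1.5-fold. 0 of them were called, against 9.27% of all genes tested. The bounds overlap also for the genes beyond the lines, with ANXA2 and ALCAM lowest and IQGAP1 and CD68 highest.

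Of 20 genes for binding partners inside the cell, 17 were tested and 0 were called, against 9.27% of all genes tested. Their median log2 fold change was 0.01. ANXA2, the partner of S100A10, had 2077 FPKM (bounds 1511 to 2642) in MDA-MB-231 and 1255 FPKM (bounds 936 to 1574) in LM2-4175. Its log2 fold change of -0.73 was the lowest of the list and past 1.5-fold, but the bounds overlap. The FPKM of S100A10 was 43.99% of that of ANXA2 in MDA-MB-231 and 33.4% in LM2-4175. AHNAK, which docks onto the complex of ANXA2 and S100A10, had 117 and 118 FPKM. ANXA1, the partner of S100A11, had 441 and 458 FPKM, and CACYBP, the partner of S100A6, had 171 and 134 FPKM. MYH9, the heavy chain of non-muscle myosin IIA and a target of S100A4, had 286 FPKM (bounds 209 to 363) and 242 FPKM (bounds 177 to 306), a log2 fold change of -0.24. PPFIBP1, or liprin beta 1, another target of S100A4, had 27.0 FPKM (bounds 18.0 to 36.0) and 48.1 FPKM (bounds 31.9 to 64.2). IQGAP1, a scaffold protein of the cytoskeleton, had 141 FPKM (bounds 65.7 to 217) and 254 FPKM (bounds 112 to 397). AHNAK, ANXA1 and MYH9, like BSG among the receptors and HRNR among the fused genes, were chosen for naming after their values were seen. The binding partners named here were not called, but with so few genes this cannot be set apart from the 9.27% called among all genes.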

How the data were processed

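The authors aligned RNA-Seq reads to hg19 with TopHat2, quantified GENCODE 19 genes with Cufflinks and ran Cuffdiff. The deposited values are FPKM, 1 per gene and cell line, with bounds and a status, each pooled over the 2 libraries. The method of library scaling, the use of strand and what the bounds cover are not given in the sources used here. The authors give aligned read pairs for each library, but the FPKM values are pooled, so the precision was read from the bounds. Log2 fold changes used a pseudocount of 1, which understates the change of low genes. The limma fit planned for values per library could not be run. The members and the gene lists, written from general knowledge, were chosen with earlier results of these data known. All 10 members are named, with every list gene called and up to 5 tested genes of the largest change in each list, and genes listed at 0 by name or count. A few list genes outside this rule are named as such, and 1 binding partner is not reported here. Positions come from GENCODE 44 on GRCh37, where all 10 members lay inside the loci of the table. Promoters come from RefSeq. Python 3.11.15, NumPy 2.4.6, pandas 2.3.3, Biopython 1.88 and Matplotlib 3.10.9 were used. The alternatives were 2 other pseudocounts, 2 other minimums, 3 scalings and 3 call rules.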

Additional observations from a re-analysis of the deposited data

How the results depend on the processing

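Under all 10 alternatives, S100A4 and S100A10 were called lower and 0 members were called higher. The log2 fold change ranged from -2.74 to -2.59 for S100A4, from -1.12 to -0.98 for S100A10 and from 0.53 to 0.64 for S100A2. S100A2 was past 1.5-fold when scaled to TPM (0.62) and after quantile normalization (0.64), where the overlapping bounds alone kept it from a call. No member changed its direction or call in the 79 values computed, and S100A6 was at 0 after quantile normalization. The 2 other minimums and the 3 call rules leave the log2 fold changes as they were, so a direction could not change there. The fold alone, the bounds alone and no minimum only relax the rule and could not remove a call. All settings use the same pooled values, so these counts are no replicate check. S100A14 was not tested with a mean of at least 5 FPKM. Over all genes, 641 were called lower and 649 higher. A minimum of 5 FPKM, which tests fewer genes, left 443 lower and 321 higher, a fold of 2 left 403 lower and 450 higher, and the fold alone gave 1640 lower and 1434 higher. Scaled to TPM, 574 were called lower and 784 higher. With the fold alone, S100A5, S100P, ALCAM, ANXA2 and CSF1R were past the threshold as lower, and TLR4, LY96, CD68, IQGAP1 and PPFIBP1 as higher. FPR1 was not tested at the minimum of 5 FPKM, and SFN was not called at a fold of 2. No paired analysis was possible because the table holds 1 value per cell line, and for the same reason no replicate could be left out. Precision is limited by the bounds, which relative to the FPKM are widest for S100A3, S100A14 and S100A9.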
